A study of Mus musculus with 4 samples.

Results

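The desmosome genes were taken as the rows *Dsp*, *Jup*, *Pkp1*, *Pkp3*, *Perp*, *Dsg1a*, *Dsg2*, *Dsg3*, *Dsc2* and *Dsc3*, which are 10 of the 24378 gene rows of each deposited table, and all 10 were found in all 4 tables. All cells came from dorsal interfollicular epidermis of female *Ivl-CreERT2*/*R26-tdTomato* mice, which were killed at postnatal day 57, 2 days after an intraperitoneal injection of 10 µg tamoxifen per g by the labels (the study's methods state another dose). The *Ivl* (Involucrin) promoter drives the Cre in this line, so tdTomato marks cells in which that promoter was active, together with their progeny. Live basal cells (CD49f+, LY6A+, CD34-) were sorted into traced (Tom+) and non-traced (Tom-) cells, and each sort was captured on 2 Fluidigm C1 chips, here called Tom+ 1, Tom+ 2, Tom- 1 and Tom- 2. Both sorts carry the same alleles and received the same treatment. The study's figure legend gives a pair of mice for the sorted cells, but neither it nor the labels tie a library to a mouse, so the tests measure the spread between libraries, which may be technical.

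Desmosomes rivet neighbouring keratinocytes together and tie the junction to the keratin filaments inside. Desmogleins (Dsg) and desmocollins (Dsc) are the cadherins that bridge the gap between cells, the armadillo proteins plakoglobin (*Jup*) and plakophilins (*Pkp1*, *Pkp3*) link their tails to desmoplakin (*Dsp*), and desmoplakin binds the keratins. In stratified epidermis the cadherins are used in layers: desmoglein 3 is typical of the basal layer and desmoglein 1 of the layers above it, while desmoglein 2 and desmocollin 2 are the forms found in simple epithelia and heart.

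Of 384 wells, 161 held at least 2000 unique molecular identifiers (UMIs, each counting 1 captured RNA molecule) on genes and were kept as cells: 35 in Tom+ 1, 58 in Tom+ 2, 20 in Tom- 1 and 48 in Tom- 2. These libraries summed to between 81630 and 305407 UMIs, with median depths of 3225 to 4525 UMIs per cell, and no well name was shared between libraries. A cell was called *Krt10*-positive if it held at least 6 UMIs of *Krt10*, a keratin of differentiating epidermis, after it was thinned to 2000 UMIs. There were 25 such cells in Tom+ 1, 38 in Tom+ 2, 2 in Tom- 1 and 3 in Tom- 2, so 68 in all against 93 *Krt10*-negative cells, and 16 cells held 4 to 7 *Krt10* UMIs and lay near the limit. The tdTomato transcript was found in 16 and 29 cells of the Tom+ libraries and in 0 and 3 cells of the Tom- libraries. *Ivl* itself was found in 2 cells, both in Tom+ 1. All 7 basal keratinocyte markers were detected in every library. Counts of cells with at least 3 markers of another type were 3 for infundibulum, 2 for Langerhans cells and 3 for T cells, and 0 for bulge, sebaceous, melanocyte, fibroblast and endothelial markers. Fewer than 3 of the listed bulge, melanocyte and endothelial markers had any UMIs. No cell could reach the limit for these types, so their 0 does not show that such cells were absent.

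The 10 genes together gave 1.28% of the UMIs of Tom+ 1, 1.24% of Tom+ 2, 0.859% of Tom- 1 and 0.780% of Tom- 2. Every kept cell held at least 1 UMI of a desmosome gene. Because the UMIs count 5′ ends once per molecule, levels of different genes could be compared without scaling to length, as UMIs per 1000000 gene UMIs of the summed cells (CPM), although the capture of each gene's 5′ end is not known. *Perp*, a tetraspan membrane protein of desmosomes, was the highest, at 4408 ± 1147 CPM (SD, n = 4 libraries), and its lowest library (3393) lay above the highest of any other member. *Dsp* followed at 1600 ± 394 and *Dsc3* at 1284 ± 321, and their libraries overlapped, although *Dsp* was above *Dsc3* in 4 of 4 libraries, by 317 ± 152 CPM within a library. *Jup* (884 ± 279) was below *Dsc3* in 4 of 4 libraries, by 400 ± 101 CPM. *Jup*, *Pkp1* (857 ± 232) and *Dsg1a* (823 ± 357) changed order between libraries and did not differ beyond their spread. *Pkp3* was lower, at 367 ± 107 CPM, and was below *Dsg1a* in 4 of 4 libraries. *Dsg3* (95.2 ± 49.2) and *Dsg2* (75.5 ± 47.2) were lower still, overlapped with each other, and had their highest libraries below the lowest of *Pkp3*. *Dsc2* came last, with 7 UMIs in 3 cells of Tom+ 2 and none in the other libraries, where a count of 0 allows up to between 16.3 and 36.8 CPM (counting error only).

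**Figure D1:**
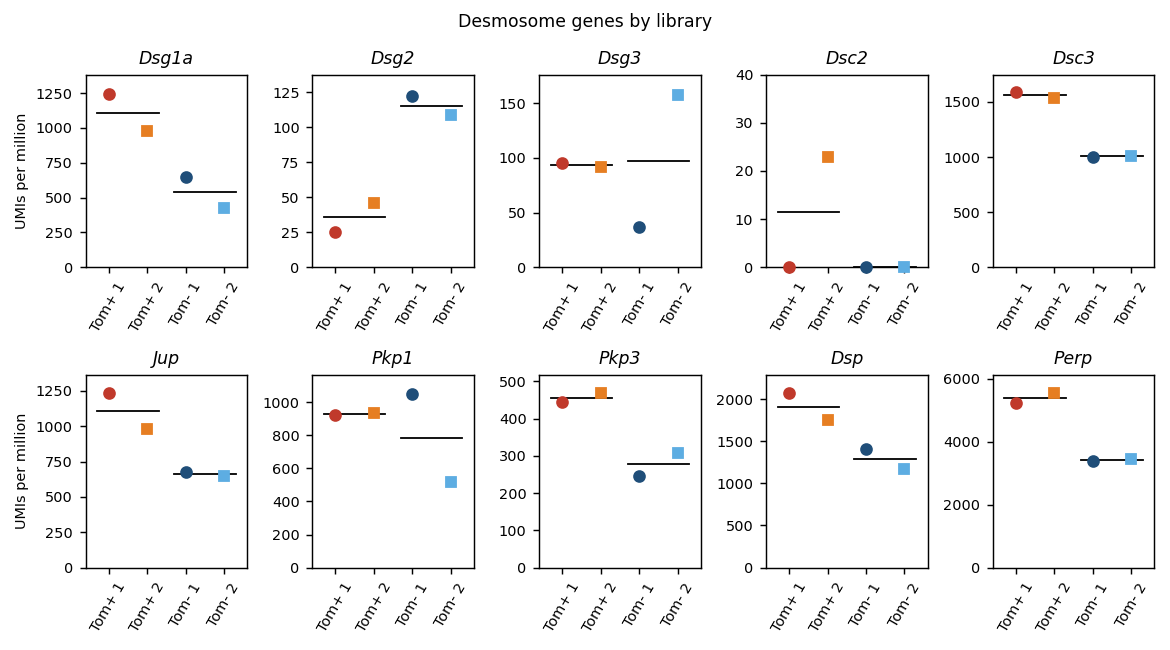
Level of each desmosome gene in CPM (vertical axes, each starting at 0) in the 4 libraries (horizontal axis), with a black line at the mean of the 2 libraries of a sort. For *Dsg1a*, *Dsc3*, *Jup*, *Pkp3*, *Dsp* and *Perp* both Tom+ libraries sit above both Tom- libraries, and for *Dsg2* both sit below.

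Traced cells were compared with non-traced cells first, over all cells of each library. Among the cadherins, *Dsg1a*, the desmoglein of the upper layers, stood at 1240 CPM in Tom+ 1 and 976 in Tom+ 2, against 649 in Tom- 1 and 428 in Tom- 2. Both Tom+ libraries were above both Tom- libraries, and the fitted log2 fold change was 1.03 (SE 0.29), with an edgeR adjusted p of 0.0972. *Dsg2* ran the other way, at 25.4 and 45.8 CPM in Tom+ 1 and 2 and 122 and 108 in Tom- 1 and 2. Its log2 fold change was -1.61 (SE 0.56) on 48 UMIs in all, with an adjusted p of 0.223. *Dsg3*, the basal desmoglein, was at 95.4 and 91.7 CPM in the Tom+ libraries and at 36.8 and 157 in the Tom- libraries, so that the Tom- libraries enclosed the Tom+ libraries. *Dsc3*, the main desmocollin here, was at 1590 and 1532 CPM in the Tom+ libraries and at 1005 and 1008 in the Tom- libraries, with a log2 fold change of 0.59 (SE 0.25) and an adjusted p of 0.408.

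Of the armadillo proteins, *Jup* was at 1233 and 982 CPM in Tom+ 1 and 2 and at 674 and 645 in Tom- 1 and 2, with a log2 fold change of 0.70 (SE 0.27). *Pkp3* was at 445 and 468 against 245 and 309, with a log2 fold change of 0.65 (SE 0.32). *Pkp1* overlapped between the sorts, at 922 and 933 CPM against 1054 and 520, with a log2 fold change of 0.26 (SE 0.30). *Dsp* was at 2073 and 1748 CPM in the Tom+ libraries and 1409 and 1170 in the Tom- libraries, with a log2 fold change of 0.54 (SE 0.25). *Perp* was at 5220 and 5566 against 3393 and 3451, with a log2 fold change of 0.62 (SE 0.22). The groups of libraries did not overlap for *Jup*, *Pkp3*, *Dsp* and *Perp*, but none of these differences passed the test.

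Of the 10 desmosome genes, 9 passed the filter on low counts in this comparison (not *Dsc2*), and 0 were called by edgeR at an adjusted p under 0.05, beside 0.847% of the 3070 genes tested that were called higher in Tom+ and 0.391% called lower. An unadjusted p under 0.05 was reached by 6 of the 9 (*Dsp*, *Jup*, *Perp*, *Dsg1a*, *Dsg2*, *Dsc3*), against 9.84% of all genes tested, and DESeq2 and limma-voom called 0. The median log2 fold change was 0.59 over the 9 members and -0.0061 over all genes tested. The members were chosen with earlier results of these data known, and the set was not tested against all genes. Tom+ 1 and Tom- 1 share a number in their titles, as do Tom+ 2 and Tom- 2. With that number as a block, edgeR called 2 members, *Dsg1a* and *Perp*, beside 116 of 3070 genes. The labels do not say what the number marks. With Tom- 1 left out, *Dsg1a* passed the test (log2 fold change 1.26, adjusted p = 0.0481). A share of cells and a level per cell cannot be told apart in these sums over all cells, which held 71.4% and 65.5% *Krt10*-positive cells in the Tom+ libraries and 10% and 6.25% in the Tom- libraries.

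The sorts differ in how many *Krt10*-positive cells they hold, so the 2 classes of cell were compared next, within each library. The *Krt10*-positive cells gave more of their UMIs to desmosome genes: 1.56% in Tom+ 1, 1.42% in Tom+ 2, 1.76% in Tom- 1 and 1.75% in Tom- 2, against 0.731%, 0.798%, 0.764% and 0.708% in the *Krt10*-negative cells of the same libraries. The classes did not overlap in this share. The rise was in *Dsg1a*, *Dsc3*, *Jup*, *Dsp* and *Perp*, between 1.85-fold for *Perp* and 3.08-fold for *Dsg1a*, and no desmosome gene was called lower. Of the 7 members that passed the filter, 5 were called higher and 0 lower by edgeR, beside 4.8% of 1293 genes tested called higher and 4.95% called lower. The median log2 fold change over the 7 was 0.91 and over all genes tested -0.14. Since the members were chosen with earlier results of these data known, the shares over all genes are given as a description only. In all, 3 members (*Dsg2*, *Dsg3*, *Dsc2*) did not pass the filter and were not tested here.

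**Figure D2:**
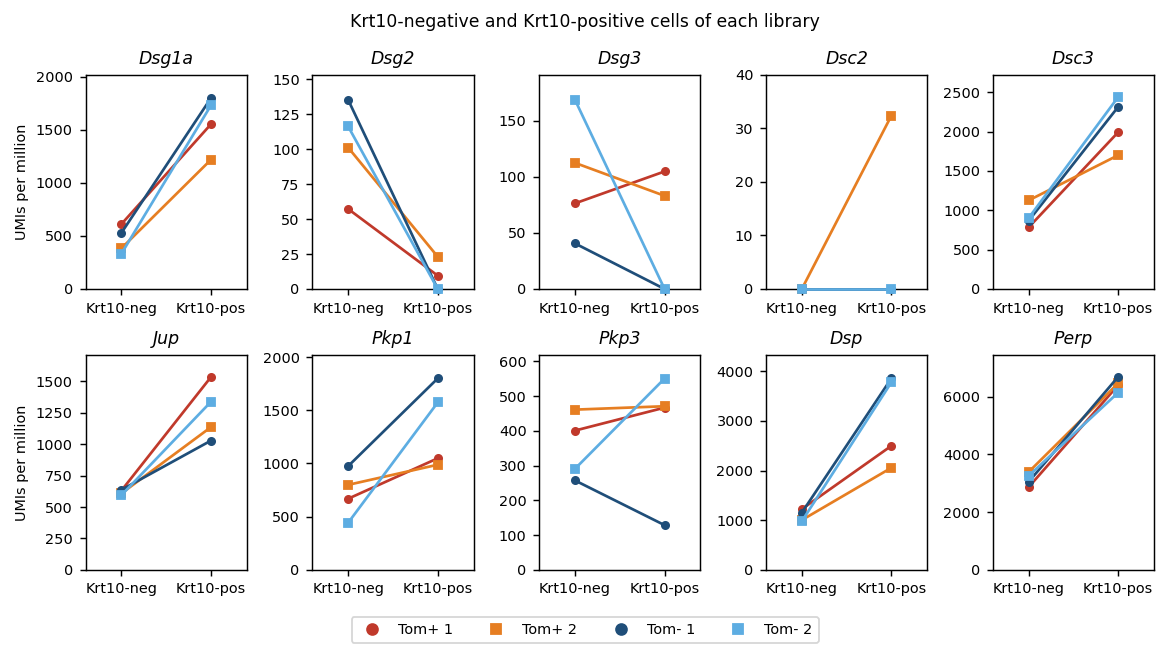
Level of each desmosome gene in CPM (vertical axes, starting at 0) in the *Krt10*-negative and *Krt10*-positive cells of each library, joined by a line per library. For *Dsg1a*, *Dsc3*, *Jup*, *Pkp1*, *Dsp* and *Perp* all 4 lines go up and the lowest *Krt10*-positive value lies above the highest *Krt10*-negative one, and for *Dsg2* all 4 go down. In Tom- 1 and Tom- 2 the *Krt10*-positive *Dsg2* value is a count of 0, which allows levels above the *Krt10*-negative ones.

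In *Krt10*-positive cells *Dsg1a* stood at 1554 CPM in Tom+ 1, 1219 in Tom+ 2, 1800 in Tom- 1 and 1731 in Tom- 2. In *Krt10*-negative cells of the same libraries it stood at 611, 383, 528 and 332. Its log2 fold change of 1.62 (SE 0.28) was the largest of the desmosome genes tested, with an edgeR adjusted p of 4.74e-07. *Dsc3* rose in all 4 libraries too, from 783 to 1992 CPM in Tom+ 1, from 1125 to 1700 in Tom+ 2, from 867 to 2314 in Tom- 1 and from 902 to 2440 in Tom- 2. The log2 fold change of *Dsc3* was 1.01 (SE 0.25, adjusted p = 0.000993). *Dsg2* was lower in *Krt10*-positive cells in 4 of 4 libraries: 9.53 against 57.3 CPM in Tom+ 1, 23.1 against 101 in Tom+ 2, and no UMIs in Tom- 1 and Tom- 2 against 135 and 116. In the *Krt10*-positive cells of the Tom- libraries a count of 0 allows up to 386 and 236 CPM, so the absence of *Dsg2* there was not detectable at this depth. Under a looser filter (at least 5 UMIs in 2 sums) *Dsg2* could be tested and gave a log2 fold change of -2.58 (SE 0.92, adjusted p = 0.195). *Dsg3* showed no common direction, at 105 and 83.1 CPM in the *Krt10*-positive cells of Tom+ 1 and 2 against 76.4 and 113 in their *Krt10*-negative cells. In the Tom- libraries *Dsg3* had no UMIs in *Krt10*-positive cells and stood at 40.6 and 169 CPM in *Krt10*-negative cells. All 7 *Dsc2* UMIs were in *Krt10*-positive cells. The 5 cadherin genes lie together in the reference (GRCm38) on chromosome 18 within 643.6 kb, from *Dsc3* (start 19960930) to *Dsg2* (end 20604521).

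*Perp* had even levels, with 6396, 6461, 6686 and 6138 CPM in the *Krt10*-positive cells of Tom+ 1, Tom+ 2, Tom- 1 and Tom- 2. Its *Krt10*-negative cells gave 2864, 3387, 3047 and 3252 in the same order. The log2 fold change was 0.89 (SE 0.22, adjusted p = 0.00107). *Pkp1*, which binds desmosomal cadherins and desmoplakin, was higher in *Krt10*-positive cells in 4 of 4 libraries but did not pass the test (log2 fold change 0.71, SE 0.27, adjusted p = 0.0892). This call depended on the settings: *Pkp1* passed at the median of 20 other thinning seeds (0.79, adjusted p = 0.0478), with at least 1000 UMIs per cell (0.84, adjusted p = 0.0149), scaled to total UMIs (0.87, adjusted p = 0.0124) and without Tom+ 2 (1.07, adjusted p = 0.0355), and its adjusted p ran up to 0.997 with no filter. Its levels were 1049, 988, 1800 and 1574 CPM in *Krt10*-positive cells and 668, 799, 975 and 442 in *Krt10*-negative cells. *Pkp3*, the other plakophilin, gave no difference that could be told from its spread: 467, 471, 129 and 551 CPM against 401, 461, 257 and 291, with a log2 fold change of 0.08 (SE 0.36). *Perp* lies on chromosome 10 (18845020 to 18857073), *Pkp1* on chromosome 1 (135871395 to 135919207) and *Pkp3* on chromosome 7 (141078218 to 141090510) of GRCm38.

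*Dsp*, the link to keratin, rose from 1222 to 2497 CPM in Tom+ 1, from 1001 to 2055 in Tom+ 2, from 1151 to 3857 in Tom- 1 and from 977 to 3777 in Tom- 2. Its log2 fold change was 1.26 (SE 0.24, adjusted p = 4.31e-06). *Jup*, the plakoglobin that desmosomes share with adherens junctions, rose from 630 to 1535 in Tom+ 1, from 608 to 1136 in Tom+ 2, from 636 to 1029 in Tom- 1 and from 593 to 1338 in Tom- 2. Its log2 fold change was 0.91 (SE 0.28, adjusted p = 0.0154), and DESeq2, which called the other 4, did not call *Jup* (adjusted p = 0.0560). The *Krt10*-negative levels of *Jup* differed little between libraries (617 ± 19.9, SD, n = 4).

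*Dsp* and *Jup*, both called higher in *Krt10*-positive cells, were the 2 members with an entry in the RefSeq promoter table used (GRCm38.p6). Their 250 bases before the start are shown 5′ to 3′ so that the stretches can be compared. Capitals mark the letters GGGCGG or their reverse complement CCGCCC (the GC box bound by Sp1), which were found 2 times before *Jup* and 4 times before *Dsp*. The other 8 members are named only.
Jup, chr11:100397791-100398040, minus strand: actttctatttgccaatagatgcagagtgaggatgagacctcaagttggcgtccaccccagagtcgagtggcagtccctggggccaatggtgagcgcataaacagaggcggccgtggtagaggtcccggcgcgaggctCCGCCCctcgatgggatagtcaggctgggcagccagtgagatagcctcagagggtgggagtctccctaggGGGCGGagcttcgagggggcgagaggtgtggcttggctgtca
Dsp, chr13:38151044-38151293, plus strand: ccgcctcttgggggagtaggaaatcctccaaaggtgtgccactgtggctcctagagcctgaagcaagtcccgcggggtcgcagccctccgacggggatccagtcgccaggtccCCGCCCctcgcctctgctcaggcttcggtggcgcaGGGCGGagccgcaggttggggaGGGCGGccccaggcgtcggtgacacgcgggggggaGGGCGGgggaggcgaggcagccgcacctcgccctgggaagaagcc

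At least 1 GC box stands in 32.74% of the 32851 promoters of this table over the same 250 bases. Neither stretch held the AP-1 letters TGACTCA (in 4.463% of promoters), the Snail E-box CAGGTG (17.22%) or the TATA box TATAAA (12.37%), searched on both strands. These matches describe letters in a window and were not tested against the counts. G and C make up 62% of the *Jup* stretch and 72.4% of the *Dsp* stretch, against a median of 52.4% over promoters. The shares of promoters given here are not matched for G and C.

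The calls between the classes rest on the filter. With no filter, 13682 genes were tested, the common biological coefficient of variation (edgeR's spread between sums beyond counting) went from 0.224 to 0.490, and 0 members were called, and with at least 5 UMIs in 2 sums 0 of 9 were called (0.378), although the log2 fold changes of the 5 stayed above 0 in both (0.50 to 1.38). Without Tom+ 1 the calls were 2 (*Dsp*, *Dsg1a*), and in the Tom+ libraries alone, without the Tom- sums of 2 and 3 cells, they were 4 (*Dsp*, *Jup*, *Perp*, *Dsg1a*). As a sum, the 7 basal keratinocyte markers gave between 32403 and 40707 CPM in *Krt10*-negative cells and between 6686 and 13402 in *Krt10*-positive cells. Most of this sum was *Krt5* and *Krt14* (means of 15024 and 17352 CPM in *Krt10*-negative cells). *Trp63* was higher in *Krt10*-positive cells in 3 of 4 libraries (log2 fold change 0.30, SE 0.33), and the other markers of the list were lower in 4 of 4. The part of these markers in the desmosome values was not tested. Infundibulum markers ranged from 257 to 1783 CPM in *Krt10*-positive cells and from 611 to 1249 in *Krt10*-negative cells.

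Cells were then split into 3 steps by thinned *Krt10* UMIs (0, 1 to 5, and 6 or more), as a description with no test. Several steps rest on few cells. In the order Tom+ 1, Tom+ 2, Tom- 1 and Tom- 2, the first step held 4, 3, 9 and 38 cells. The second held 6, 17, 9 and 7, and the last 25, 38, 2 and 3. *Perp* was higher at each step in 4 of 4 libraries: it went from 2589 to 3041 to 6396 CPM in Tom+ 1, from 2586 to 3633 to 6461 in Tom+ 2, from 2303 to 3826 to 6686 in Tom- 1 and from 2901 to 4458 to 6138 in Tom- 2. *Dsg1a* stood at 586, 287, 371 and 346 CPM in cells without *Krt10* and at 627, 412, 693 and 283 in cells with 1 to 5 *Krt10* UMIs (Tom+ 1, Tom+ 2, Tom- 1, Tom- 2). The levels of *Dsg1a* in both of these steps lay below those of every *Krt10*-positive sum. *Jup* at 1 to 5 *Krt10* UMIs was above the cells without *Krt10* in 1 of 4 libraries, and *Dsg1a*, *Dsp* and *Dsc3* in 3 of 4. From the middle step to the *Krt10*-positive step, *Dsp*, *Jup*, *Pkp1*, *Perp*, *Dsg1a* and *Dsc3* were higher in 4 of 4 libraries and *Dsg2* in 0 of 4. For *Dsg2* the last step held no UMIs in Tom- 1 and Tom- 2, where its absence was not detectable.

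**Figure D3:**
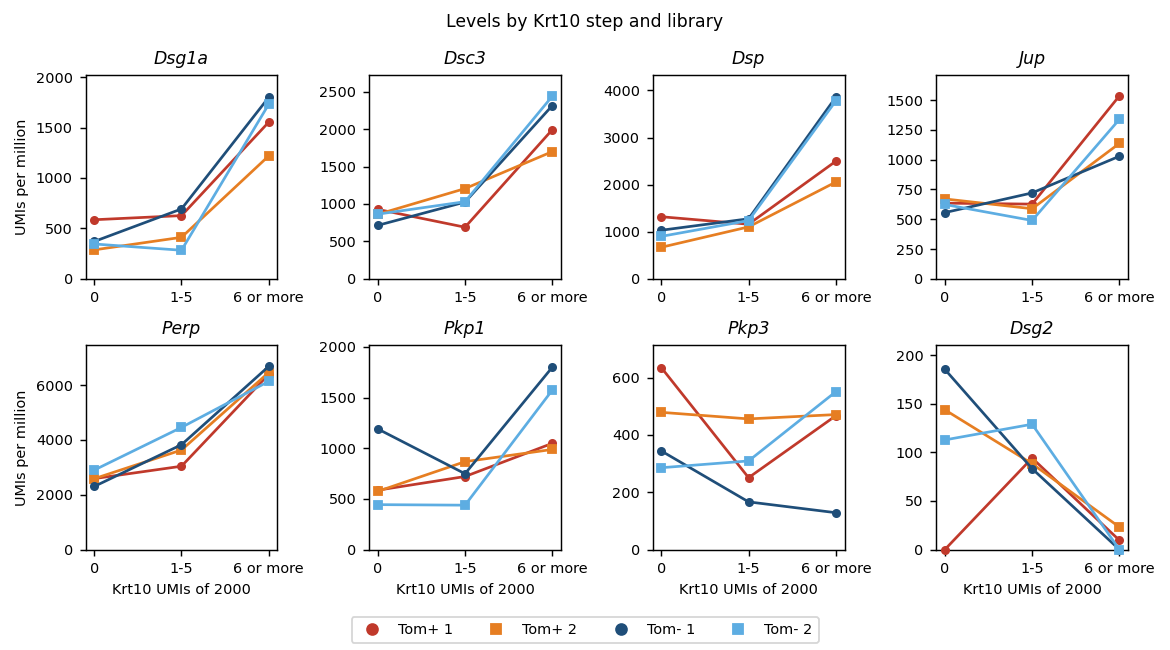
Levels of 8 desmosome genes in CPM (vertical axes, starting at 0) in cells with 0, 1 to 5, and 6 or more *Krt10* UMIs of 2000 (horizontal axes), joined by a line per library. *Perp* is higher at each step in all 4 libraries, while *Dsg1a* and *Jup* change in either direction between the first 2 steps (above in 3 and 1 of 4 libraries) and are highest in the last in all 4. The first step holds 4 and 3 cells in Tom+ 1 and Tom+ 2, and the last holds 2 and 3 in Tom- 1 and Tom- 2.

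Within *Krt10*-negative cells the sorts were compared again. This class was not matched for *Krt10* below the limit. Cells without thinned *Krt10* UMIs were 4 of 10 in Tom+ 1 and 3 of 20 in Tom+ 2. They were 9 of 18 in Tom- 1 and 38 of 45 in Tom- 2. *Krt10* itself had a log2 fold change of 0.96 (SE 0.33, edgeR adjusted p = 0.435). The desmosome genes of Tom+ and Tom- cells were close within this class. *Dsg1a* was at 611 and 383 CPM in the Tom+ libraries and at 528 and 332 in the Tom- libraries, which overlap. Its log2 fold change was 0.16 (SE 0.39). *Dsp* was at 1222 and 1001 against 1151 and 977 (log2 fold change 0.0036, SE 0.29). *Jup* (-0.05, SE 0.35), *Perp* (-0.07, SE 0.23), *Dsc3* (0.07, SE 0.30) and *Pkp1* (0.07, SE 0.34) also had log2 fold changes within 1 SE of 0. *Pkp3* had the largest, 0.58 (SE 0.43), with 401 and 461 CPM in the Tom+ libraries and 257 and 291 in the Tom- libraries, which do not overlap. Of the 7 members tested 0 were called, at adjusted p = 0.997 each, beside 0.226% of 1328 genes tested, 0 had an unadjusted p under 0.05, and DESeq2 and limma-voom called 0. A p over the threshold does not show that the sorts were alike, since the SEs ran from 0.23 to 0.43.

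Whether the *Krt10* class difference itself differed between the sorts was tested as an interaction. Of the 7 members, 0 were called and 0 had an unadjusted p under 0.05, beside 0.232% of 1293 genes called. The interaction log2 values ran from -0.75 (SE 0.51) for *Pkp1* to 0.28 (SE 0.53) for *Jup*. The Tom- side of this test rests on 2 and 3 *Krt10*-positive cells with 7778 and 12707 UMIs.

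**Figure D4:**
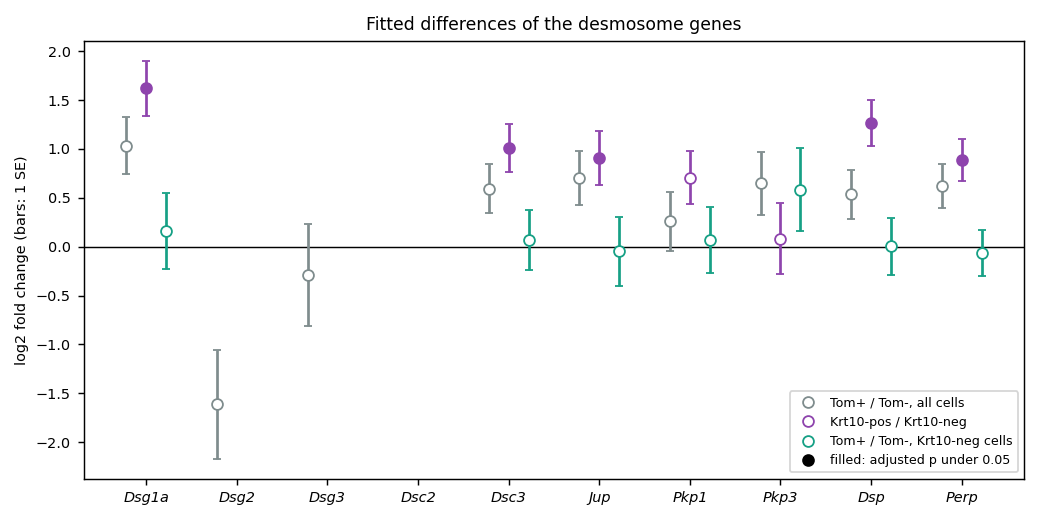
Fitted log2 fold change of each tested desmosome gene (vertical axis, bars of 1 SE) for Tom+ against Tom- over all cells (grey), *Krt10*-positive against *Krt10*-negative cells (purple) and Tom+ against Tom- within *Krt10*-negative cells (green). Filled points have an adjusted p under 0.05: the 5 filled points are the *Krt10* class differences of *Dsg1a*, *Dsc3*, *Jup*, *Dsp* and *Perp*.

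The make-up of the cadherins was compared as shares of UMIs. A higher share of *Dsg1a* can come from more *Dsg1a* alone, which was 3.08-fold higher in *Krt10*-positive cells, and does not show that another desmoglein was replaced. Of the desmoglein UMIs (*Dsg1a*, *Dsg2* and *Dsg3*), *Dsg1a* made up 93.1% in the *Krt10*-positive cells of Tom+ 1 (163 of 175, 95% Clopper-Pearson interval 88.3 to 96.4) and 92.0% in those of Tom+ 2 (264 of 287, 88.2 to 94.9). It made up 100% of the *Krt10*-positive desmoglein UMIs in Tom- 1 (14 of 14, 76.8 to 100) and in Tom- 2 (22 of 22, 84.6 to 100). In *Krt10*-negative cells its share was 82.1% in Tom+ 1 (32 of 39, 66.5 to 92.5), 64.2% in Tom+ 2 (34 of 53, 49.8 to 76.9), 75% in Tom- 1 (39 of 52, 61.1 to 86.0) and 53.8% in Tom- 2 (57 of 106, 43.8 to 63.5). The share was higher in *Krt10*-positive cells in 4 of 4 libraries, by 27.5 ± 14.4 percentage points (SD, n = 4), and the exact two-sided sign-flip test over libraries gave p = 0.125, the smallest that 4 libraries allow. In the 2 Tom+ libraries, where the *Krt10*-positive sums are deepest, the difference was 11.1 and 27.8 points. These intervals cover counting error only.

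The remainder in *Krt10*-negative cells was shared by both other desmogleins. *Dsg3* took 10.3%, 18.9%, 5.77% and 27.4% of their desmoglein UMIs in Tom+ 1, Tom+ 2, Tom- 1 and Tom- 2, and *Dsg2* took 7.69%, 17.0%, 19.2% and 18.9%. In *Krt10*-positive cells *Dsg3* kept 6.29% and 6.27% in the Tom+ libraries, while *Dsg2* had 0.571% and 1.74%. *Dsg1a* was found in 123 of all 161 cells, in 24 of the 33 cells with a *Dsg2* UMI and in 40 of the 47 cells with a *Dsg3* UMI. *Dsg1b*, a near-identical neighbour of *Dsg1a*, had 11, 46, 3 and 16 UMIs in Tom+ 1, Tom+ 2, Tom- 1 and Tom- 2, and *Dsg1c* had 9, 18, 4 and 5, and since the rule for reads that fit more than 1 copy is not given in the sources used here, the split among these copies is uncertain. With the further desmogleins in the denominator the difference in *Dsg1a* share was 29.1 points.

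Between the sorts, over all cells, *Dsg1a* made up 91.1% and 87.6% of desmoglein UMIs in Tom+ 1 and 2 and 80.3% and 61.7% in Tom- 1 and 2. The libraries did not overlap, with means of 89.4 ± 2.46 and 71.0 ± 13.1 (SD, n = 2), and the exact two-sided permutation test gave p = 0.333, the smallest that 2 against 2 allow.

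Nearly all desmocollin UMIs were *Dsc3* in both classes. *Dsc3* made up 100% of *Dsc2* and *Dsc3* UMIs in every sum except the *Krt10*-positive cells of Tom+ 2, where it made up 98.1% (368 of 375, 96.2 to 99.2), and the mean difference between classes was -0.467 ± 0.933 percentage points (exact sign-flip p = 1, n = 4). Of the plakophilins, *Pkp1* gave 69.2%, 67.7%, 93.3% and 74.1% of *Pkp1* and *Pkp3* UMIs in *Krt10*-positive cells and 62.5%, 63.4%, 79.1% and 60.3% in *Krt10*-negative cells of Tom+ 1, Tom+ 2, Tom- 1 and Tom- 2. It was higher in 4 of 4 libraries, by 9.75 ± 4.99 points (exact sign-flip p = 0.125, the smallest possible), and the intervals of both classes overlapped in each library.

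**Figure D5:**
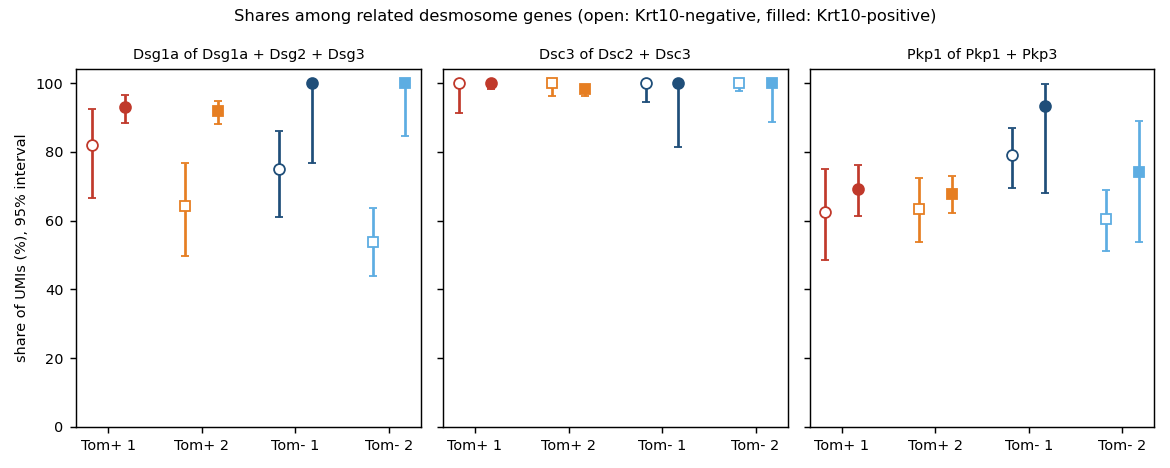
Share of UMIs in percent (vertical axis, with 95% Clopper-Pearson intervals) of *Dsg1a* among desmogleins, *Dsc3* among desmocollins and *Pkp1* among plakophilins, per library (horizontal axis), in *Krt10*-negative (open) and *Krt10*-positive (filled) cells. The *Dsg1a* share is higher in the filled point of all 4 libraries, and the *Dsc3* share stays between 98.1% and 100%.

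Other genes of the junction were counted from fixed lists in the same fits. Of all 1293 genes tested between the *Krt10* classes, 4.8% were called higher and 4.95% lower, with a median of -0.14. Of 10 further desmosome and cornified-envelope plaque genes, 2 were tested between the *Krt10* classes and *Evpl* (envoplakin) rose, by 2.66 on the log2 scale (SE 0.57, adjusted p = 0.000102), while *Ppl* (periplakin) gave 0.39 (SE 0.39). *Dsg4* and *Pkp2* had no UMIs, and *Dsc1*, the desmocollin of upper layers, had 2 UMIs in each Tom+ library and none in the Tom- libraries. Of 16 genes that act on desmosomes, 7 were tested and 3 rose. These were the protease inhibitor *Spink5* (2.52, SE 0.53), the adhesion protein *Lypd3* (2.04, SE 0.40) and the transcription factor *Grhl1* (1.71, SE 0.60). *Grhl1*, known as a regulator of *Dsg1* genes, lay near the threshold (edgeR adjusted p = 0.0437). Of these, *Spink5* (2.70) and *Lypd3* (1.95) were also called higher in Tom+ libraries over all cells. The median log2 difference between the classes over the 7 was 0.73. *Evpl* and *Grhl1* passed the filter on low counts only through their *Krt10*-positive sums. The lowest of these sums were 226 and 129 CPM, and their highest *Krt10*-negative sums were 105 and 56.3 CPM. Their rise is therefore tied to the filter that let them be tested.

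Of 6 keratins, *Krt10*, which set the classes, and *Krt1* and *Krt77* were higher in *Krt10*-positive cells (log2 fold changes of 3.32, 3.03 and 2.23), and *Krt5* (-1.62) and *Krt14* (-4.02), the basal pair, were lower. The first 3 were also the keratins called higher in Tom+ libraries over all cells (2.23, 2.25 and 2.51), and *Krt1* was higher in Tom+ within *Krt10*-negative cells (2.13). Its class difference was smaller in Tom+ than in Tom- libraries by the interaction test (-2.42, adjusted p = 0.000501). Of 6 tested adherens junction genes 2 rose between the classes, *Ctnnd1* (1.18) and *Pvrl4* (3.98), with a median of 0.51 beside -0.14 over all genes tested. *Pvrl4* too passed the filter only through its *Krt10*-positive sums (lowest 139 CPM, against 33.8 in the highest *Krt10*-negative sum). Of 3 tight junction genes 0 were called by edgeR. The gap junction gene *Gja1* (-1.23) was lower, as was *Col17a1* (-1.26), 1 of 5 tested hemidesmosome genes, whose median was -0.87. All 5 hemidesmosome genes tested, which anchor cells to the basement membrane, had values below 0. Of these, *Dst* (-0.21, SE 0.32) lay near the median over all genes, and *Plec* gave -0.54 (SE 0.39). Both were lower in *Krt10*-positive cells in only 2 of 4 libraries. All 7 desmosome genes that passed the filter had values above 0, although *Pkp3* fell below 0 under 5 alternatives. The filter left out *Dsg2* and *Dsg3*, which gave -2.58 and -0.66 with at least 5 UMIs in 2 sums. It also left out *Dsc2*, which gave 2.92 with no filter. The contrast between the lists was not tested. Between the sorts over all cells, 0 of 4 further desmosome, 9 adherens, 3 tight junction, 4 gap junction and 5 hemidesmosome genes tested were called, with medians of 0.64, 0.34, -0.10, 0.81 and -0.63.

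Likeness was measured per cell on thinned counts, as the mean over 4 libraries of the within-library Pearson correlation of ln(UMI + 1), for the 7 members with at least 200 UMIs against 489 genes, over 161 cells. It describes cells that share library and depth, in sparse counts. *Krt10* was the gene most like *Perp* (0.49), followed by *Itm2b* and *Calm5*, most like *Dsp* (0.43), followed by *Ly6g6c* and *Krtdap*, and most like *Dsg1a* (0.38), followed by *Perp* and *Krtdap*. For *Dsc3* the leading genes were *Cdkn1a* (0.34), *Krt10* (0.30) and *Gm94*, for *Pkp1* they were *Ly6g6c* (0.36), *Dsp* and *Krtdap*, and for *Jup* they were *Dsg1a* (0.33), *Nfe2l1* and *Atf3*. *Pkp3* had the lowest leading value of the 7, 0.26 with *Serpinb2*, followed by *S100a6* and *Ifrd1*. Single libraries differed widely, for *Jup* and *Dsg1a* from 0.18 to 0.66. Among the 21 pairs of members, the values ran from -0.03 (*Pkp3* and *Dsg1a*) to 0.35 (*Perp* and *Dsg1a*).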

How the data were processed

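The authors deposited whole-number UMI counts per gene and C1 well for 4 libraries, without normalization. The labels name the builds mm10 and GRCm38, and the aligner is not given in the sources used here. Totals were taken over the 24378 gene rows, and 109 spike-in and reporter rows were left out. Wells with at least 2000 gene UMIs were kept, without a doublet caller. Each cell was thinned once to 2000 UMIs (seed 1) to set its *Krt10* class. Full UMI counts were summed per library, or per library and class, and tested with edgeR 4.0.16 in R 4.3.3 (TMM, filterByExpr, quasi-likelihood, two-sided, Benjamini-Hochberg, threshold 0.05), with the library as a block between classes. The rule named all 10 members, up to 5 called genes of each other list by size of change, and the 3 genes with the highest mean correlation. The procedure was tested on simulated data. Replicate libraries differed by more than sampling noise (chi-square per degree of freedom 2.37 and 2.30). DESeq2 1.42.0 and limma 3.58.1 were alternatives, as were other cell minimums, filters, scalings, *Krt10* limits, seeds and left-out libraries. The members and lists were chosen with earlier results of these data known. Positions come from GENCODE and RefSeq annotation of GRCm38.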

Additional observations from a re-analysis of the deposited data

Results flagged for a closer look

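Desmosome UMIs were also found in the 54 wells that held some but fewer than 2000 gene UMIs and entered no comparison. Above the limit of 3 UMIs that a count of 0 allows, these wells held 93 UMIs of *Perp* in 23 wells, 61 of *Dsp*, 38 of *Pkp1*, 36 of *Dsc3*, 20 of *Jup*, 17 of *Dsg1a*, 8 of *Pkp3* and 4 of *Dsg2*, out of 30056 gene UMIs. *Dsg3* had 1 UMI and *Dsc2* none. As CPM these were 3094 for *Perp*, 2030 for *Dsp*, 1198 for *Dsc3* and 566 for *Dsg1a*. Whether these wells held cells was not tested.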

How the results depend on the processing

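Between the *Krt10* classes the log2 fold changes of *Dsp*, *Jup*, *Perp*, *Dsg1a* and *Dsc3* kept their direction under all 21 alternatives, but the number of members called, 5 as reported, was 2 with at least 5000 UMIs per cell, 3 with *Krt10*-positive set at 1 or at 3 UMIs (without *Jup* and *Dsc3*), 0 with no filter, 0 with at least 5 UMIs in 2 sums, and 2 to 6 with 1 library left out (2 without Tom+ 1). *Pkp3* turned to -0.27 on thinned counts, -0.18 with no filter, -0.077 with at least 5 UMIs in 2 sums, -0.26 at 1 *Krt10* UMI and -0.015 without thinning. Scaling to total UMIs added *Pkp1* to the calls and moved the median of all genes by 0.14. Between the sorts over all cells, 1 member was called on thinned counts (*Dsg1a*, edgeR adjusted p = 0.00551). With libraries that share a number in their titles as a block (the replicate block), 2 were called (*Dsg1a*, 0.00107, and *Perp*, 0.00257). The log2 fold change of *Dsg1a* ran from 0.83 to 1.26 with 1 library left out. Over 1061 genes, the deviations of libraries with the same replicate number correlated at 0.21 in 2 pairs. The labels do not say what the number in the titles marks. *Pkp1* was -0.00077 on thinned counts and -0.11 to 0.74 with 1 library left out, and *Dsg3* -0.84 to 1.4.

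Within *Krt10*-negative cells 0 members were called under all 20 alternatives, and values near 0 changed sign. *Dsp* was -0.016 at 1000 UMIs per cell, -0.27 at 5000, -0.0016 without cells with 3 markers of another type, -0.047 with no filter, -0.00064 with the replicate block, -0.015 at 1 *Krt10* UMI and -0.13 to 0.12 with 1 library left out. *Pkp1* was -0.66 at 5000 UMIs, -0.47 at 1 *Krt10* UMI and -0.36 to 0.60 with 1 library left out, and *Dsg1a* -0.63 at 5000 UMIs and -0.17 to 0.47 with 1 library left out. *Perp* was 0.051 without the 5% of cells with most UMIs, 0.12 on thinned counts, 0.10 at 3 *Krt10* UMIs, 0.044 without thinning, 0.062 over 20 other seeds and -0.23 to 0.077 with 1 library left out. *Jup* was 0.16 on thinned counts, 0.084 and 0.038 at 1 and 3 *Krt10* UMIs and 0.023 without thinning, and *Dsc3* -0.43 on thinned counts, -0.0053 without thinning and -0.27 to 0.29 with 1 library left out. The *Pkp1* share difference was 14.7 points with further plakophilins.

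Counts of genes called moved by over 1.5 times. Between the sorts 38 became 8 at 5000 UMIs, 65 without Tom- 1 and 116 with the block. Between the classes 126 became 23 at 5000 UMIs or 1 *Krt10* UMI, 71 at 3, 54 on thinned counts, 26 with no filter, 79 with at least 5 UMIs in 2 sums, 72 without Tom+ 1 or Tom+ 2 and 80 in the Tom+ libraries alone. Within *Krt10*-negative cells 3 became 0 to 8. The cause of these changes was not tested. The Tom- *Krt10*-positive sums (7778 and 12707 UMIs) limit *Dsg2*, *Dsg3* and *Dsc2* most, and a lone library in a sort was assumed to vary like the other sort.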
